A study of Mus musculus with 3 samples.

Results

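Regions of the mouse genome that held 30 or more normalized reads of 5-hydroxymethylcytosine (5hmC) signal in at least 1 of the 2 libraries compared had the largest counts, not divided by length, of the regions deposited for folate-sufficient and folate-deficient mouse embryonic stem cells (mESCs). There were 1432 such regions among 19817 listed ones, 7.23% (6.87% to 7.6%). They were chosen by joining both whole-genome lists, the one higher with folate and the one higher without, and keeping each distinct position whose larger normalized count reached 30. The assay was hMeDIP-seq, immunoprecipitation of hydroxymethylated DNA followed by sequencing, in which an antibody against 5hmC pulls down genomic fragments. All cells were of the Sv129 mESC line, grown in serum medium with folate at 4 mg/L (FA4) or at 0 mg/L (FA0). The tables carry values for 1 immunoprecipitated library of each condition, so neither a replicate check nor a test between conditions can be made. The tables describe DNA regions alone, so the cell type could not be checked against its expressed markers. How long the cells were kept without folate and how many cultures were pooled are not given in the sources used here, and the third sample, an input library of FA0 without antibody, was not used here. Positions are in mm10, and a gene named for a region is the one the tables assign, which can lie far away.

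TET enzymes make 5hmC by oxidising 5-methylcytosine, mostly at CpG dinucleotides, and folate feeds the methyl donor from which 5-methylcytosine is made. In embryonic stem cells 5hmC is found in gene bodies, at enhancers and around promoters. Part of the mouse genome is present in many nearly identical copies: tandem arrays of recently duplicated genes, ribosomal and other small RNA genes, satellite sequence beside the centromeres, and nuclear copies of mitochondrial DNA, which are stretches of the mitochondrial genome inserted into a chromosome. A short read from such sequence can match several places, among them the mitochondrial genome itself, so the reads counted at 1 copy need not come from it.

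The deposited value is a read count multiplied by 1 factor per library, and 1 read was worth 0.866 normalized counts in FA4 and 1.15 in FA0. A region therefore entered with 35 or more FA4 reads or with 26 or more FA0 reads. Length was not part of the rule, and the regions that entered were longer. Those higher in FA4 had a median of 1230 bp, against 1080 bp over all such listed regions. Those higher in FA0 had 1140 bp, against 760 bp. The listed regions had also passed thresholds on the difference between the libraries, a p of 1e-04 and a fold of 2 as read from the counts. Direction and size of difference were thus part of how the regions came to be listed, and they are described below without a test. Intervals are exact 95% intervals for counting error alone, since amplified reads are not independent molecules, and ratios are not corrected for this selection.

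Promoters near FA4-higher regions often had a copy elsewhere, and those near FA0-higher regions rarely did. Promoter windows from RefSeq (build GRCm38.p6) span 250 bases before to 50 after a gene's start, and a window was said to have a copy when it shared 100 or more of its 276 words of 25 bases with the window of another gene, on either strand. A window lay within 20 kb of 153 of the 328 FA4-higher regions, and 61 of these 153, 39.9% (32.1% to 48.1%), were near a window with a copy. Many of these regions lay close together and could be scored on the same window. They were thus not independent, and the interval is too narrow. The same held for 10 of 647 FA0-higher regions, 1.55% (0.744% to 2.82%). Among listed regions under 30 counts the shares were 9.04% (8.12% to 10.0%) for FA4-higher and 1.63% (1.21% to 2.15%) for FA0-higher regions. Of all 32851 windows 5.16% had a copy, a share of windows and not of regions. The windows of Gm21119, Gm15319 and 4930467E23Rik on chromosome 8, shown because they lie inside the largest cluster of FA4-higher regions, were identical over all 300 bases. It is printed here from chr8:20614677-20614976 (+), 1465 bp from a region with 83.1 FA4 and 15.0 FA0 counts.
Gm21119: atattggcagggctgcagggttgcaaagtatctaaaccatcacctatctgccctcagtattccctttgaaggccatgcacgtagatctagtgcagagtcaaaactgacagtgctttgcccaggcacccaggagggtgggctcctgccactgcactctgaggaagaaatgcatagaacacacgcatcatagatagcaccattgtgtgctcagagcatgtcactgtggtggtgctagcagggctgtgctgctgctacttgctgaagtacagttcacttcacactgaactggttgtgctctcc
On chromosome 1 the windows of A530032D15Rik, C130026I21Rik and Sp140 were copies of each other inside the Sp100 cluster. They lie at chr1:85109804-85110103 (-), chr1:85270517-85270816 (-) and chr1:85600453-85600752 (+). Capitals mark letters without an identical partner in a global alignment to A530032D15Rik, 21 of 300 for C130026I21Rik and 30 of 300 for Sp140.
A530032D15Rik: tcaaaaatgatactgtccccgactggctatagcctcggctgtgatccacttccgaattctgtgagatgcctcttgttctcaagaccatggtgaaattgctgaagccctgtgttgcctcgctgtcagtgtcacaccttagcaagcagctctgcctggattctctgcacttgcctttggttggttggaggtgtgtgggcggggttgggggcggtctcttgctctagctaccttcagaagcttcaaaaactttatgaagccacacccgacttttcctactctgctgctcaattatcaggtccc
C130026I21Rik: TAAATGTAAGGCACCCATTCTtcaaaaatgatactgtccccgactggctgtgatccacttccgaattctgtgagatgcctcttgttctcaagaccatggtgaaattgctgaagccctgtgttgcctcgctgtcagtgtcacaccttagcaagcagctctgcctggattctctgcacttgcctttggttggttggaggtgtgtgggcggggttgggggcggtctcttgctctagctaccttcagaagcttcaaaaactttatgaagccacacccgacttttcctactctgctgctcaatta
Sp140: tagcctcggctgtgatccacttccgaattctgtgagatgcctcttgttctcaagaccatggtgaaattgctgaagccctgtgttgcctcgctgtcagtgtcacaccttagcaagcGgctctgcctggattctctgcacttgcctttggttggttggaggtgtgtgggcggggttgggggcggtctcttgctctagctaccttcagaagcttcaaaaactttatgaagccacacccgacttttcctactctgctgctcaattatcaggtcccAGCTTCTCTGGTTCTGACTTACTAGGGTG
The FA0-higher regions reached promoter windows far more often. Of the 1432 regions 70 overlapped a window, 68 of the 1104 FA0-higher and 2 of the 328 FA4-higher ones. The motif CG was counted (it reads the same on both strands): all 88 windows under FA0-higher regions held it, with a median of 13.5 per window, against a median of 7.0 in all windows, of which 94.6% held it. The 3 windows under FA4-higher regions had a median of 3.0. Among regions under 30 counts, 187 windows lay under the 6606 FA0-higher and 117 under the 11779 FA4-higher ones. Their medians were 8.0 and 5.0. The windows of Cmtm3 at chr8:104340344-104340643 (+), Sap25 at chr5:137641223-137641522 (+) and Rab3a at chr8:70754852-70755151 (+) are shown because they lie inside strong FA0-higher promoter regions, with each CG in capitals (12, 20 and 22). The window of Tnfsf13 lay inside such a region too (16.4 FA4 and 55.4 FA0 counts), but it held only 5 CG, under the median of all windows, and is not printed. None of the 3 printed windows had a copy, though the region at Cmtm3 is 1 of the 10 FA0-higher regions that lay near another window with one.
Cmtm3: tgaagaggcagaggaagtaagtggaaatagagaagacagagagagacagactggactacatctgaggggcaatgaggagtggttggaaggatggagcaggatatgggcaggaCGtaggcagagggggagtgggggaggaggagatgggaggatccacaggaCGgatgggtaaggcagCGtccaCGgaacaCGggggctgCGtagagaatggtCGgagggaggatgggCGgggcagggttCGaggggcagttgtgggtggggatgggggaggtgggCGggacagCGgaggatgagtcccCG
Sap25: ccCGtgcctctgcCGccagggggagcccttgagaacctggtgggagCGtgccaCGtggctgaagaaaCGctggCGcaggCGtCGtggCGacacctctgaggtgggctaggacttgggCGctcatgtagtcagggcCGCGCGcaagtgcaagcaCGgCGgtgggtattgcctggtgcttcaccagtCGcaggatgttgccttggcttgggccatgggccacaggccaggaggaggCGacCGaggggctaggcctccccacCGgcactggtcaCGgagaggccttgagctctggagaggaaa
Rab3a: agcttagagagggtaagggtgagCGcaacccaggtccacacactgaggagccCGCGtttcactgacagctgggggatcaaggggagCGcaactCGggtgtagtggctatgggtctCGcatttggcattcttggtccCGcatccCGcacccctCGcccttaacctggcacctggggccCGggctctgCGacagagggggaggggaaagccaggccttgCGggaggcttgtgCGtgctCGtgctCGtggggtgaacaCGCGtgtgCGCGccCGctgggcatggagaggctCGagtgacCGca

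Most of the 1432 regions were higher without folate. A total of 1104, 77.1% (74.8% to 79.2%), held the larger count in FA0 and 328, 22.9% (20.8% to 25.2%), in FA4. Over all 19817 listed regions the majority lay the other way, with 38.9% higher in FA0 and 61.1% higher in FA4, and among the 18385 regions under 30 counts 64.1% (63.4% to 64.8%) were higher in FA4. Of all FA0-higher regions 14.3% (13.5% to 15.1%) reached 30 counts, against 2.71% (2.43% to 3.01%) of FA4-higher ones. This split moved with the scale between the libraries: the FA4-higher share was 39.6% with FA4 scaled up by 25%, 12.5% with FA0 scaled up by 25%, and 48.9% when 30 reads without scaling were required.

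**Figure D1:**
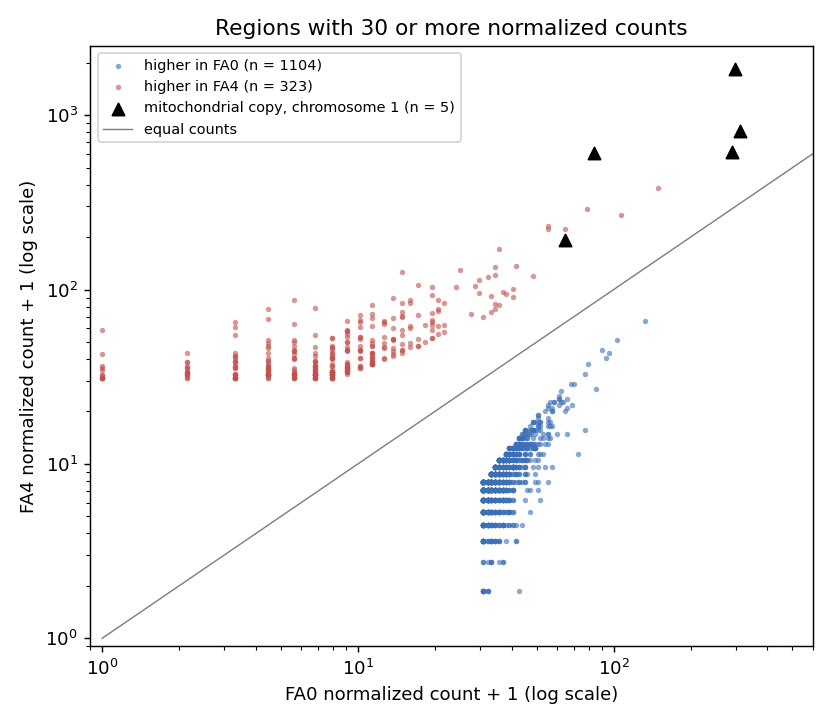
Normalized count + 1 of each of the 1432 regions in FA4 (vertical, log scale) against FA0 (horizontal, log scale), 1 point per region, with the line of equal counts. The 1104 FA0-higher regions (blue) end at 132 counts, while FA4-higher regions (red) and the 5 regions of the mitochondrial copy (black triangles) extend to 1849.

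The majority turned with the size of the count. Between 30 and 35 counts 110 of 734 regions were higher in FA4, 15.0% (12.5% to 17.8%). Between 40 and 50 counts 58 of 228 were, 25.4% (19.9% to 31.6%), and between 50 and 75 counts 62 of 113, 54.9% (45.2% to 64.2%). From 75 to 100 counts the share was 75% (21 of 28, 55.1% to 89.3%) and from 100 to 200 counts 87.5% (14 of 16, 61.7% to 98.4%). All 10 regions at 200 counts or more were higher in FA4, which allows a share from 69.2%. Several of the 10 were neighbours in the mitochondrial copy on chromosome 1, described below. Neighbouring regions are not independent, so that interval is too narrow. The FA0-higher regions were gathered just above 30, with a median of 34.6 counts and a highest of 132, and 14 FA4-higher regions exceeded that highest value. The FA4-higher regions had a median of 40.7 counts and a highest of 1849. Regions just inside the rule held 30.3 counts for FA4-higher (1 assigned to Dsel and 2 to Cntnap5a) and 30 for FA0-higher (Kcnb2, Gm15455, Slc4a3), and those just outside held 29.4 (Gm597, Cd28, Dsel) and 28.9 (Gm17751, Daw1, Gm19589).

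**Figure D2:**
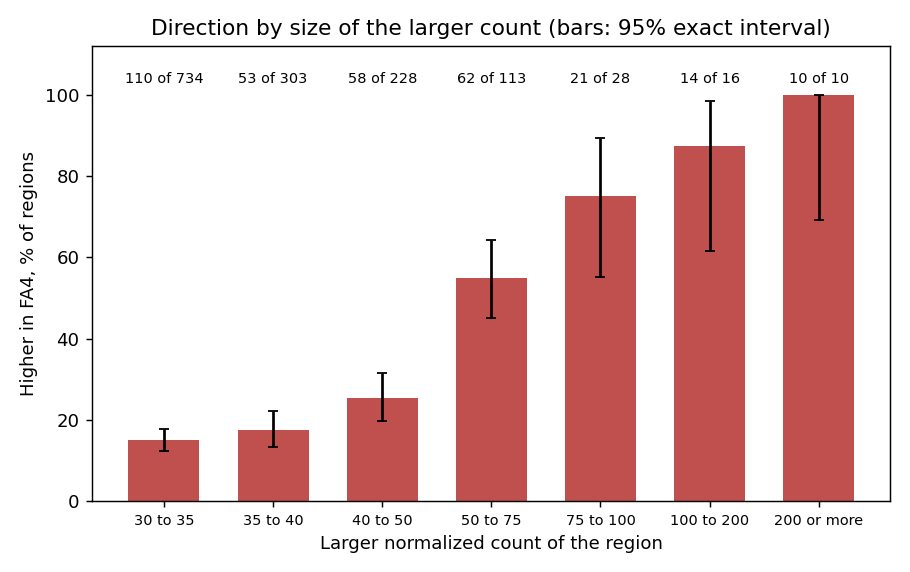
Share of regions higher in FA4 (vertical, %) in 7 bins of the larger normalized count (horizontal), with exact 95% intervals and the number of regions above each bar. The share is 15.0% from 30 to 35 counts and 100% at 200 counts or more.

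The lower library was rarely empty in these regions. In FA4-higher regions the FA0 library held a median of 6.93 counts and at most 311. In FA0-higher regions the FA4 library held a median of 6.93 and at most 65. The other library held 0 reads in 12 of 328 FA4-higher regions, 3.66% (1.9% to 6.30%), and in 0 of 1104 FA0-higher regions, which allows a share of up to 0.272% by a limit of 3 counts and of 0.334% by the exact interval. Over the listed regions the same shares were 81.1% of FA4-higher and 32.4% of FA0-higher regions, which is 49.5% and 12.6% of all 19817. Where both libraries had reads, the ratio had a median of 5.40 (2.12 to 36.8, lowest to highest) in 316 FA4-higher regions and of 4.80 (2.01 to 48.0) in 1104 FA0-higher ones. At least 4-fold with 1 added to each count were 919 of 1432, 64.2% (61.6% to 66.7%), against 97.4% of all listed regions. The same thresholds bear on this difference, since small counts pass them only at a large fold.

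The 12 FA4-higher regions without FA0 reads were led by 1 near Smarca5-ps on chromosome 4, a pseudogene of a chromatin remodeler, with 58.0 FA4 counts (67 reads), at least 16.8-fold higher if FA0 is set to 3 reads. Of the 12, 6 lay between 145 and 148 Mb of chromosome 4, assigned to Smarca5-ps, Gm13212, Gm13251, Gm13242, Gm13247 and Gm13154, with 30.3 to 58.0 FA4 counts. The others were assigned to Gm21119 and Zmat4 on chromosome 8, Dsel, Cntnap5a and 1700056E22Rik on chromosome 1, and Bmpr1b, a receptor for bone morphogenetic proteins, on chromosome 3.

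By class, as the deposited tables assign it, the regions lay closer to genes than listed regions did in general. Promoter regions lay within 1999 bp of a start site and upstream regions from 2017 to 19980 bp before it. Promoters held 148 of the 1432 regions, 10.3% (8.81% to 12%), against 4.92% of all listed regions, and exons held 61, 4.26% (3.27% to 5.44%), against 2.15%. Intergenic sequence held 507, 35.4% (32.9% to 37.9%), against 49.2%. Introns held 459 (32.1%) and upstream sequence 257 (17.9%), against 30.4% and 13.3%. FA0-higher regions made up 87.8% of the promoter regions (130 of 148, 81.5% to 92.6%) and 91.8% of the exon regions (56 of 61, 81.9% to 97.3%), against 61.0% and 62.5% of the listed regions of those classes. They made up 80.6% of intron and 79.4% of upstream regions, against 43.4% and 46.8% of the listed ones. They made up 67.9% of the intergenic ones (344 of 507, 63.6% to 71.9%), against 30.8% of those listed. Intergenic sequence held 163 of 328 FA4-higher regions, 49.7% (44.2% to 55.2%), and 344 of 1104 FA0-higher ones, 31.2% (28.4% to 34.0%). Over all listed regions the shares were 55.7% and 38.9%. The distance from a region to the nearest start site had a median of 32506 bp in FA4-higher and 17667 bp in FA0-higher regions. Over all listed regions the medians were 62751 and 27757 bp, so these differences between directions were not particular to regions with 30 or more counts.

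**Figure D3:**
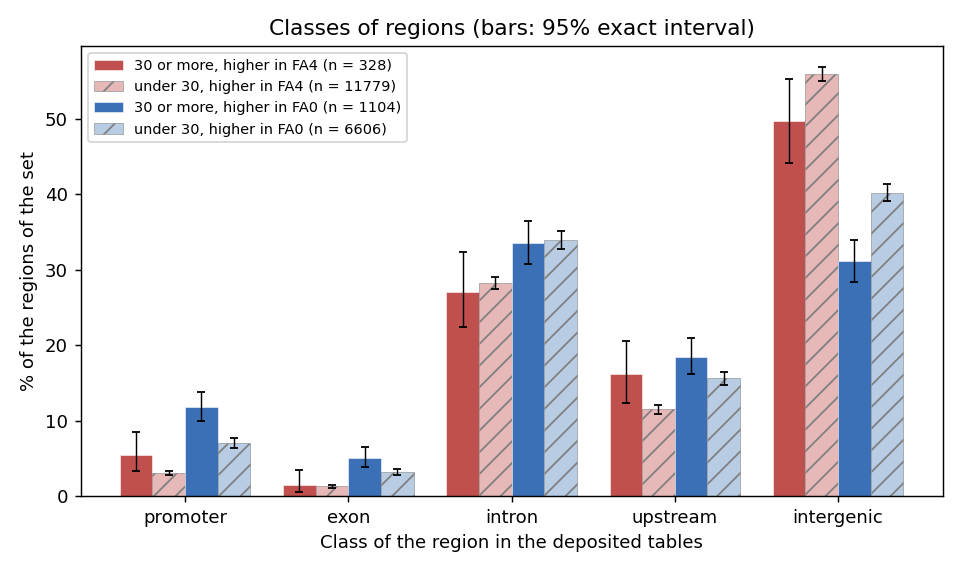
Share of regions (vertical, %) in each class of the deposited tables (horizontal) for regions with 30 or more counts (full colour) and under 30 counts (hatched), by direction, with exact 95% intervals. With 30 or more counts, promoters held 11.8% of the regions that were FA0-higher and 5.49% of those that were FA4-higher, against 7.04% and 3.07% under 30.

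Annotated genes differed in the same way. Protein-coding genes overlapped 721 of 1104 FA0-higher regions, 65.3% (62.4% to 68.1%), and 126 of 328 FA4-higher ones, 38.4% (33.1% to 43.9%). Under 30 counts the shares were 54.3% and 39.4%, so the FA4-higher share was close to that of the lower regions. Pseudogenes overlapped 42 FA4-higher regions, 12.8% (9.39% to 16.9%), against 2.45% (1.62% to 3.54%) of FA0-higher regions. Under 30 counts those pseudogene shares were 1.96% and 1.68%. The median number of protein-coding genes within 100 kb was 3.00 for FA0-higher and 2.00 for FA4-higher regions, against 2.0 and 1.0 under 30 counts.

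The largest counts of all lay in a nuclear copy of mitochondrial DNA on chromosome 1, in intergenic sequence that the tables assign to Col19a1, a collagen gene. All 5 listed regions there reached 30 counts, and all were higher in FA4. Their lengths summed to 4600 bp over a 4740 bp span (mm10). The gene table places the pseudogenes Gm10222 and Gm10925 under them, and gives Gm10925 the name of mitochondrial Atp6, a subunit of ATP synthase, as a synonym. From the chromosome's start onward, the region at 24611581 to 24612140 held 191 FA4 and 63.5 FA0 counts, a ratio of 3.00 (2.22 to 4.11). The next, 24612181 to 24612780, held 816 and 311, a ratio of 2.63 (2.29 to 3.02). The middle region, 24612661 to 24614580, held 1849 and 298, a ratio of 6.21 (5.45 to 7.09). Both libraries were thus high here, and the smallest FA0 count of the 5 exceeded the median FA4 count of the FA4-higher regions. The region at 24614741 to 24615420 held 612 and 289, a ratio of 2.12 (1.83 to 2.46). The last, 24615481 to 24616320, held 606 and 83.1, a ratio of 7.29 (5.72 to 9.43).

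Signal was uneven along the copy and its ratio was not constant. Per kb of region FA4 ran from 340 to 1360 normalized counts and FA0 from 99.0 to 518, and both were highest in the region that starts 600 bp into the span. The ratio ranged from 2.12 to 7.29 between regions that follow each other, and the intervals of those 2 regions did not overlap. Summed over the 5, FA4 held 4074 and FA0 1044 normalized counts, a ratio of 3.90 (3.63 to 4.20), or 2.98 (2.73 to 3.26) without the middle region. The second and the third overlap, so reads there may be counted in both. All 5 together held 13.7% of the FA4 reads and 2.32% of the FA0 reads of all 1432 regions. Reads from the nuclear copy and reads from mitochondrial DNA cannot be told apart in the tables.

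**Figure D4:**
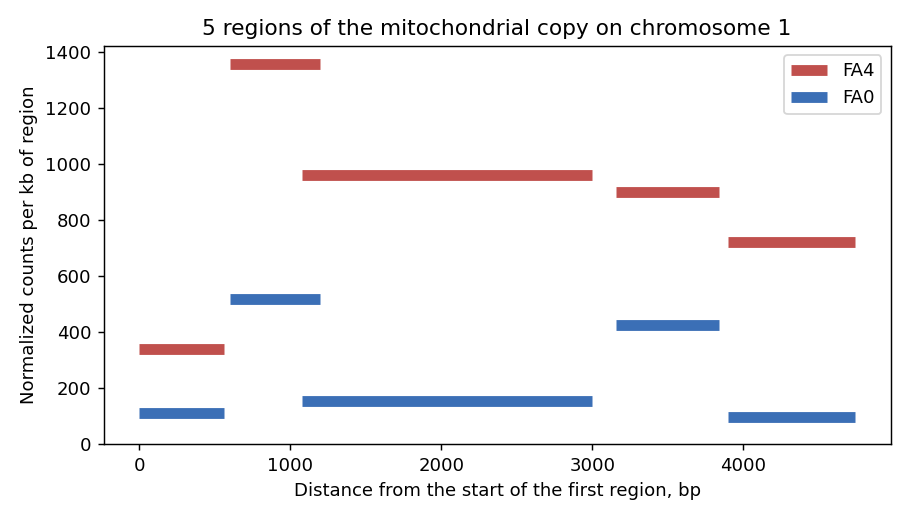
Normalized counts per kb of region (vertical) for the 5 regions of the mitochondrial copy, drawn from the start to the end of each region (horizontal, bp from the start of the first), for FA4 (red) and FA0 (blue). FA4 lies above FA0 in all 5, with 340 to 1360 against 99.0 to 518 per kb.

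Outside the mitochondrial copy the largest FA4 counts, ranked per region and not per length, mostly lay outside promoters and exons. The same was true of FA4-higher regions in general, of which promoters held 5.49% and exons 1.52%. The region 25859 bp past the start of Ly6c2 on chromosome 15, a surface antigen of monocytes, held 381 FA4 and 148 FA0 counts, a ratio of 2.58 (2.11 to 3.16). That near Polr3k, a subunit of RNA polymerase III, on chromosome 2 overlapped the long non-coding RNA Gm40034 and held 289 and 77.4, a ratio of 3.74 (2.87 to 4.94). The region assigned to 2810429I04Rik on chromosome 13 held 267 and 106, a ratio of 2.51 (1.98 to 3.20). These 3 were high in both libraries, and each FA0 count exceeded the median of 34.6 in FA0-higher regions. On chromosome 18 the regions assigned to the vomeronasal receptor Vmn1r238 and to Kctd16, an auxiliary subunit of GABA-B receptors, each held 223 FA4 counts, with 54.3 and 63.5 in FA0. On the X chromosome an intron of the claudin gene Cldn34d held 126 and 13.9, a ratio of 9.06 (5.03 to 17.9). In the first 4 Mb of the autosomes, the ends that adjoin the centromeres in the mouse, 26 FA4-higher and 9 FA0-higher regions were found, of 148 and 52 listed there. The 26 lay on 5 chromosomes, and most of them were assigned to Sfi1, Eif4enif1 or Gm5795.

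FA4-higher regions lay in clusters more often than FA0-higher ones, which lay mostly alone. Regions less than 10 kb apart were joined into loci, which gave 1282 loci, 1207 of them with 1 region. Another region lay within 10 kb of 167 of 328 FA4-higher regions, 50.9% (45.4% to 56.4%), and of 58 of 1104 FA0-higher ones, 5.25% (4.01% to 6.74%). The same shares were not measured over all listed regions, so clustering is not shown to be particular to these. In the densest 1-Mb window, from 20 Mb of chromosome 8, 111 FA4-higher and 2 FA0-higher regions were listed. Of the 15 loci with 4 or more regions, 12 held FA4-higher regions alone, 3 held both directions and 0 held FA0-higher regions alone. In windows of 1 Mb, FA4-higher regions occupied 109 windows and FA0-higher regions 624. There were 23 windows with 6 or more regions, 11 of them mostly FA4-higher, and these 11 held 184 of the 328 FA4-higher regions, 56.1%, beside 16 FA0-higher ones. Outside the 23 windows 138 of 1145 regions were higher in FA4, 12.1% (10.2% to 14.1%).

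**Figure D5:**
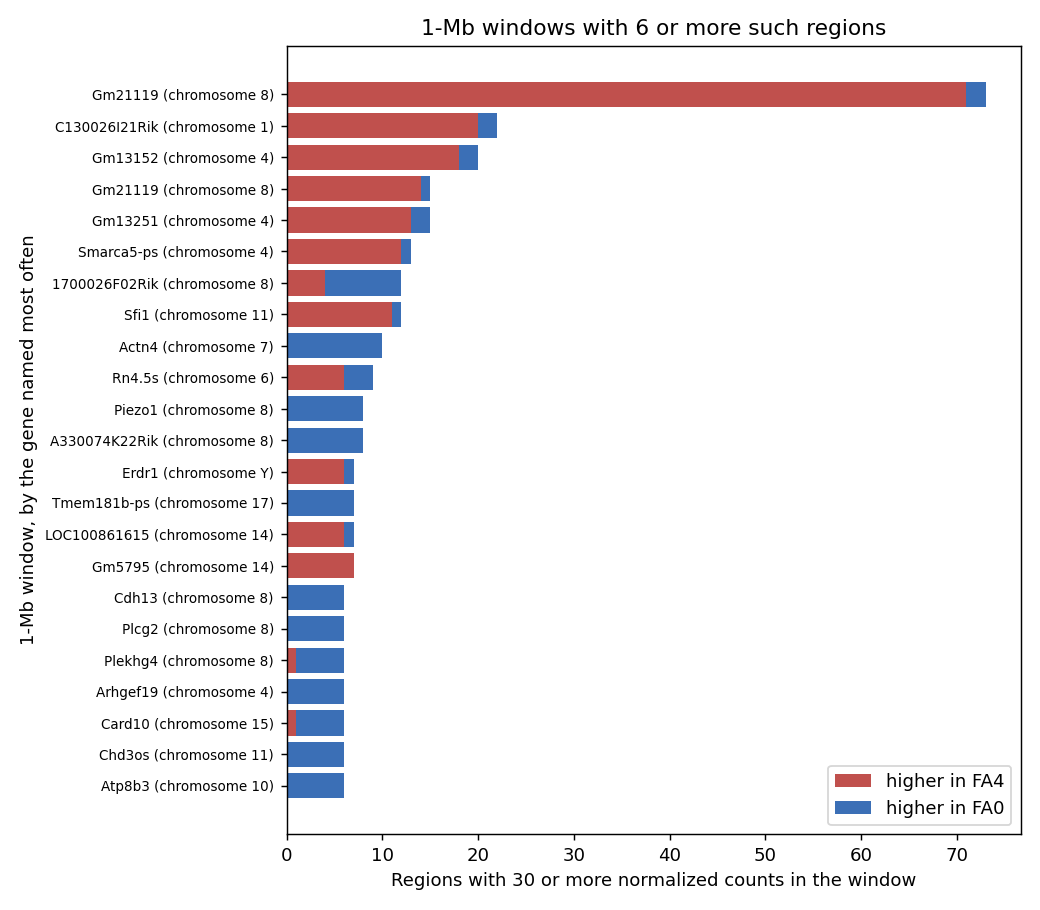
Number of regions with 30 or more counts (horizontal) in each of the 23 windows of 1 Mb that held 6 or more (vertical, each named by its most frequent assigned gene and chromosome), split into FA4-higher (red) and FA0-higher (blue). The window of Gm21119 on chromosome 8 holds 73 regions, 71 of them higher in FA4, and 12 windows are mostly FA0-higher.

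The largest cluster lay between 19 and 21 Mb of chromosome 8, the stretch of the copied promoter printed for Gm21119. It held 85 FA4-higher and 3 FA0-higher regions, of 151 and 4 listed there. FA4 counts ran from 30.3 to 231 with a median of 48.5, and FA0 counts of the same 85 regions from 0 to 54.3 with a median of 10.4. Most genes there carry only predicted or RIKEN names: Gm21119 was assigned 40 of the 1432 regions, 6820431F20Rik 15, 2610005L07Rik 13 and Gm15319 10. The strongest, 20538421 to 20541720, held 231 FA4 and 54.3 FA0 counts, a ratio of 4.26 (3.12 to 5.94). At its edge 2 regions near the defensin gene Defa21, held 54.6 and 32.0 FA4 counts against 8.08 and 6.93 in FA0. The rest of chromosome 8 held 15 FA4-higher and 158 FA0-higher regions with 30 or more counts. Most regions listed there were FA4-higher, 1038 against 563, as over the whole list. The chromosome as a whole held 100 and 161, of 1189 and 567 listed.

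On chromosome 1, between 85 and 86 Mb, 20 FA4-higher regions lay in and beside the Sp100 cluster, whose genes encode nuclear body proteins that respond to interferon. Their FA4 counts ran from 32.9 to 76.2 (median 49.4) and their FA0 counts from 3.46 to 32.3 (median 11.0). All 19 regions assigned to genes of the cluster were FA4-higher, and 35 of the listed regions belonged to it, 34 of them FA4-higher. A region assigned to C130026I21Rik was the strongest, with 76.2 FA4 and 3.46 FA0 counts, a ratio of 22.0 (7.29 to 109), followed by Sp110 (73.6 and 32.3) and Sp100 (67.5 and 12.7). Both FA0-higher regions of that window lay outside the cluster, near 4933407L21Rik (7.79 FA4 and 32.3 FA0 counts) and Gpr55, a lysophospholipid receptor (6.93 and 41.6).

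Sfi1 on chromosome 11, which encodes a centrin-binding protein of the centrosome, had 10 listed regions, alone or together with Eif4enif1, and all 10 reached 30 counts, 9 of them FA4-higher. The intronic region at 3167641 to 3168400 held 104 FA4 and 27.7 FA0 counts, a ratio of 3.75 (2.40 to 6.08). Its single FA0-higher region, 3150401 to 3150600 over the pseudogene Gm11400, held 42.4 and 94.7, a ratio of 2.23 (1.55 to 3.25). The neighbouring region assigned to Eif4enif1, a transporter of the cap-binding factor, held 170 and 34.6, a ratio of 4.90 (3.33 to 7.46). Opposite directions thus stood within 1 gene, a few kb apart.

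On chromosome 4, from 145 to 148 Mb, 43 FA4-higher and 5 FA0-higher regions were found, of 124 and 12 listed there. They were assigned mostly to predicted genes and to the pseudogene Smarca5-ps. FA4 counts of the 43 ran from 30.3 to 120 (median 37.2) and FA0 counts from 0 to 33.5 (median 5.77). Gm13152 was assigned 9 of them, Smarca5-ps 6 and Gm13154 5. In the zinc finger gene Zfp600 an intronic region held 57.2 FA4 and 8.08 FA0 counts, a ratio of 7.07 (3.25 to 18.3). The FA0-higher region assigned to Gm13251 over the pseudogene Gm13241 held 27.7 and 69.3, a ratio of 2.50 (1.60 to 3.97).

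On chromosome 14, from 3 to 8 Mb, 23 regions were FA4-higher and 2 FA0-higher, of 137 and 8 listed there. FA4 counts of the 23 ran from 30.3 to 90.9 with a median of 42.4. Gm5795 was assigned 5, the strongest at 76.2 FA4 and 33.5 FA0 counts. Chromosome 1 between 110 and 130 Mb, where 463 listed regions were FA4-higher and 57 FA0-higher, gave 24 FA4-higher and 12 FA0-higher regions here. Their FA4 counts reached 49.4 at most with a median of 32.5, so this long stretch entered mainly at the edge of the rule. The genes assigned to it included Cntnap5a, a neural adhesion protein, with 6 FA4-higher regions and Dpp10, a partner of potassium channels, with 5.

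On the sex chromosomes few regions reached 30 counts, 7 on X and 8 on Y. Listed were 215 FA4-higher and 126 FA0-higher regions on X, and 17 and 11 on Y. Of the 8 on Y, 6 were FA4-higher and lay near Erdr1, a gene of the pseudoautosomal end, with 35.5 to 91.8 FA4 and 6.93 to 18.5 FA0 counts. The FA0-higher region assigned to Gm21708 on Y held 10.4 FA4 and 71.6 FA0 counts, a ratio of 6.89 (3.68 to 14). Near G530011O06Rik on X an FA0-higher region held 32.0 and 76.2, and at the promoter of Asmt, the last enzyme of melatonin synthesis, 23.4 and 60.0, a ratio of 2.57 (1.58 to 4.25).

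Repeated small RNA genes also held strong FA0-higher regions. Rn4.5s on chromosome 6, which encodes a small RNA found in rodents, was assigned 9 regions, 6 FA4-higher and 3 FA0-higher, interleaved along the array. All 3 FA0-higher ones were promoter regions, and the strongest, 47672401 to 47673400, held 65 FA4 and 132 FA0 counts, a ratio of 2.03 (1.5 to 2.75) and the largest FA0-higher count of all. The second held 39.8 and 92.4, a ratio of 2.32 (1.59 to 3.41). The FA4-higher regions beside them held 34.6 to 50.2 FA4 counts against 4.62 to 15.0 in FA0. On chromosome 8 an FA0-higher region over n-R5s139, a gene of 5S ribosomal RNA, held 27.7 and 67.0 counts, and was picked for mention after its values were seen. Upstream of Snord116, in the imprinted cluster of small nucleolar RNAs, a region held 20.8 and 60.0, a ratio of 2.89 (1.75 to 4.90).

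Other leading FA0-higher regions were assigned to single named genes, which were not always close. Those assigned to Hrh1 and Actr3 were intergenic, 44739 and 73457 bp past the start, and that of Atg7 was intergenic too. The largest of these counts belonged to the region assigned to Atg7, an enzyme of autophagy (50.2 FA4 and 102 FA0 counts, ratio 2.02, 1.44 to 2.87), and to that assigned to Hrh1, a histamine receptor (44.2 and 88.9, ratio 2.01, 1.40 to 2.93). An intron of Rps6kc1 held 36.4 and 78.5. Upstream of Cotl1, an actin-binding protein, the counts were 14.7 and 76.2, a ratio of 5.18 (3.00 to 9.41), with an interval above those of Atg7 and Hrh1. The region assigned to Actr3, a subunit of the Arp2/3 complex, held 20.8 and 68.1, a ratio of 3.28 (2.01 to 5.51). On chromosome 17 the 7 regions between 6 and 7 Mb were all FA0-higher, where 4 FA4-higher and 12 FA0-higher ones were listed. Those 4 assigned to Tmem181b-ps held 43.9 to 84.3 FA0 counts, against 14.7 to 26.0 in FA4.

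The largest counts among FA0-higher promoter regions lay at genes of varied function. After Rn4.5s these were led by Cmtm3, a membrane protein of the chemokine-like factor family (19.9 FA4 and 64.7 FA0 counts, ratio 3.25, 1.97 to 5.53), and Sap25, a subunit of the Sin3 corepressor (19.1 and 63.5, ratio 3.33, 2.00 to 5.74). Tnfsf13, a B cell survival cytokine, and the forkhead factor Foxs1 each held 55.4 FA0 counts, with 16.4 and 15.6 in FA4. Tmem231, a protein of the ciliary transition zone, held 15.6 and 54.3. The neuronal genes Cacng8, a subunit of AMPA receptors, and Rab3a, a GTPase of synaptic vesicles, each held 50.8 FA0 counts, with 15.6 and 12.1 in FA4. These 7, Asmt and 2 regions of Rn4.5s made up the 10 strongest FA0-higher promoter regions.

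FA4-higher promoter regions were 18, and most of the strongest carried names of the clusters. The highest were 2610005L07Rik with 73.6 FA4 and 13.9 FA0 counts, Sfi1 with 64.1 and 9.24, Sp110 with 49.4 and 8.08, and Gm13251 with 46.8 and 10.4. Promoter regions at genes outside the clusters were lower than these, but not lower than all promoter regions in the clusters. Gm13034 and 6820431F20Rik, both in clusters, held 37.2 and 34.6 FA4 counts. E2f4, a repressor of cell cycle genes, with its neighbour Exoc3l, held 41.6 and 12.7, a ratio of 3.27 (1.68 to 6.99), and the zinc finger gene Zfp930 held 39.8 and 6.93, a ratio of 5.75 (2.45 to 16.5). Fam171b held 37.2 and 1.15, the latter being 1 read, a ratio of 32.3 (5.49 to 1303).

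Exon regions were nearly all FA0-higher. Among the 8 strongest, Shank1, a scaffold of the postsynaptic density, held 15.6 FA4 and 56.6 FA0 counts, a ratio of 3.63 (2.08 to 6.62). Hyou1, a chaperone of the endoplasmic reticulum, held 8.66 and 53.1, a ratio of 6.13 (3.05 to 13.6). Aldh3a1, an aldehyde dehydrogenase, held 11.3 and 43.9, and Disc1, a neuronal scaffold protein, 14.7 and 43.9. Of these, 1 was FA4-higher, that of A530032D15Rik in the Sp100 cluster, with 45.9 and 8.08.

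Several 1-Mb windows held FA0-higher regions alone, and the genes named for them were chosen after their values were seen. Between 28 and 29 Mb of chromosome 7 all 10 regions were FA0-higher, where 4 FA4-higher and 16 FA0-higher ones were listed. Among the 10 were 2 at Actn4, which crosslinks actin, and 1 at Fcgbp with 12.1 FA4 and 54.3 FA0 counts. Between 122 and 123 Mb of chromosome 8 all 8 were, where 2 FA4-higher and 16 FA0-higher ones were listed. Among the 8 were 2 at the mechanosensitive channel Piezo1, the stronger with 3.46 FA4 and 39.3 FA0 counts, a ratio of 11.3 (4.04 to 44.0). Between 120 and 121 Mb of the same chromosome all 8 were, where 1 FA4-higher and 15 FA0-higher ones were listed. Of the 8, A330074K22Rik was assigned 4 and Irf8, a factor of myeloid cells, 2. In the window from 70 to 71 Mb both kinds met: 8 FA0-higher regions at genes such as Gdf15 and Rab3a, and 4 FA4-higher ones near 1700026F02Rik with up to 102 FA4 and 18.5 FA0 counts. Of the 53 gene symbols assigned 3 or more regions, 23 held FA4-higher regions alone, 14 FA0-higher regions alone and 16 both.

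Of 47 listed regions of 44 genes of neural tube closure 6 reached 30 counts, 12.8%. Of 73 listed regions of 56 genes of Hedgehog signalling 7 did, 9.59%, against 7.23% of all listed regions. The lists of folate, pluripotency, DNA methylation and TET, and feeder fibroblast genes gave 5.71%, 6.98%, 7.41% and 8.70%. All these shares rest on few regions, and differences between them were not tested. The 6 regions of neural tube closure were all FA0-higher, of 21 FA4-higher and 26 FA0-higher ones listed. They held 32.3 to 39.3 FA0 and 6.06 to 11.3 FA4 counts. Celsr1, a planar polarity cadherin, was assigned 3, and Grhl3, Shroom3 and Zic2 were assigned 1 each. The Zic2 region lay 20467 bp from that gene's start, within Pcca. Hedgehog signalling had 7, all FA0-higher, of 38 FA4-higher and 35 FA0-higher ones listed. The ligand Dhh held 13 FA4 and 47.3 FA0 counts, a ratio of 3.64 (1.98 to 7.09), and the transcription factor Gli2 had 2 regions with 38.1 and 35.8 FA0 counts. Of 35 listed regions of 41 folate and one-carbon genes 2 were kept: Mtrr, which reactivates methionine synthase, held 6.06 and 30, while an exon region assigned to Tyms, thymidylate synthase, held 31.2 and 3.46, the opposite direction. From the list of DNA methylation and TET genes, with 27 listed regions, came regions assigned to Gadd45b (6.93 and 34.6) and Zbtb4 (4.33 and 33.5). The first lay 22910 bp from the start of Gadd45b, within Gng7, and the second lay within Polr2a. From the pluripotency list, with 43, came 2 FA0-higher regions at the receptor Esrrb (33.5 FA0 counts each) and 1 FA4-higher region near Nr5a2 (33.8 and 6.93). The larger counts of these regions ran from 30 to 47.3, and the share of FA0-higher regions in the lists stood against 77.1% over all 1432.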

How the data were processed

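Libraries of 5hmC-enriched DNA from FA4 and FA0 cells were compared, 1 of each. Per the submitters' processing notes, reads were trimmed with cutadapt 1.9.1 and aligned with Bowtie2 2.2.4 to mm10. The region caller, the scaling method and the treatment of reads with several matches are not given in the sources used here, and the labels and the study's methods name different immunoprecipitation and extraction kits. The signal the authors deposited is a normalized read count per region, coverage scaled by 1 factor per library. Every value was a whole multiple of 0.866 (FA4) or 1.15 (FA0) to within 0.00576 of a read, which gave the reads behind each interval. The listed regions held 239268 FA4 and 144823 FA0 reads, and the depth of whole libraries is not given in these tables. The deposited tables also hold the authors' own fold changes, p-values and false discovery rates, which were not used, and 8 further columns of per-sample averages were not used. A p recomputed from the counts (G-test, at most 9.86e-05 over the listed regions) was used in their place as the threshold alternative. The promoter tables repeat 975 regions with the same counts.

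Both whole-genome lists (26808 rows) were joined to 19817 distinct positions. Shares have exact Clopper-Pearson intervals and ratios exact conditional binomial intervals (scipy 1.17.1 with pandas 2.3.3 and numpy 2.4.6 in Python 3.11.15, figures with matplotlib 3.10.9), tested on simulated data. No test was made between libraries. A ratio against 0 reads used 3 reads as the lower count. Gene types and promoter windows came from RefSeq tables, in which 97.7% of matched transcripts had the deposited start site inside the gene. Genes were named by rule: the 12 strongest loci and 10 strongest promoter regions per direction, the 8 strongest exon regions, the mitochondrial copy, loci of 4 or more regions, up to 4 regions per list or family, and the regions at the edge of the minimum. The regions, lists and rules were chosen with earlier results of these data known. Alternatives changed the minimum, scale, p, fold, merging and chromosomes.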

Additional observations from a re-analysis of the deposited data

How the results depend on the processing

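No paired analysis was possible because each condition had 1 library. Of 81 alternatives over 8 results, 44 stayed close to the value (counts within 1.5 times, other values within the 95% interval) and 37 moved; the cause of a move was not tested. The majority turned from FA0-higher to FA4-higher at a minimum of 50 counts. With 20 counts as the minimum there were 1286 FA4-higher and 3327 FA0-higher regions (27.9% FA4-higher, 39.6% intergenic, 8.26% promoter, 4.47% with 0 reads in the other library). With 50 counts there were 107 and 60 (64.1% FA4-higher, 43.7% intergenic, 7.19% promoter, 39.5% within 10 kb of another). With 30 unscaled reads there were 553 and 577 (48.9% FA4-higher, 40.8% intergenic, 3.45% with 0 reads, 21.2% within 10 kb). With FA4 scaled up by 25% there were 725 FA4-higher regions (39.6% of all, 39.9% intergenic, 3.12% with 0 reads), and with FA0 scaled up by 25% 2299 FA0-higher ones (12.5% FA4-higher, 13.2% within 10 kb). At a p of at most 1e-05 there were 538 FA0-higher regions (31.4% FA4-higher, 1.53% with 0 reads), and at a fold of 4 there were 693 (10.8% within 10 kb). Merging regions within 1000 bp left 13.1% within 10 kb, and without chromosome 8 the values were 19.5% FA4-higher and 11.9% within 10 kb. The ratio of the mitochondrial copy was 4.88 with FA4 scaled up, 3.12 with FA0 scaled up, 5.20 in unscaled reads and 2.98 without its most read region. Only regions already listed could enter any alternative, and depth limits every value to counting error in 1 library per condition.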
